A study of Mus musculus with 572 samples.

Results

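The Kcna2/Prlr-high cells are a group of 94 of the 572 neonatal mTEC-high measured one by one by RamDA-seq, 52 from EED-cKO mice and 42 from Aire/EED-dKO mice. They were chosen by a score, the mean of the deposited natural-log values of Kcna2, Prlr, Sgsm1, Thsd7b, Tmem158, Clca3b, Irx4, Slc4a8 and Adam12 in a cell, and the 94 cells with the highest score were taken. Medullary thymic epithelial cells with high MHC class II (mTEC-high) display self-antigens to developing T cells. Many of these antigens are tissue-specific genes that need Aire, a nuclear protein that turns on transcription at otherwise quiet loci. EED is a core subunit of Polycomb repressive complex 2 (PRC2), which methylates lysine 27 of histone H3 and keeps developmental genes, the Hox and Iroquois genes among them, silent.

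In EED-cKO mice a floxed Eed gene is deleted by Cre under the Foxn1 promoter, which is active in thymic epithelium, and Aire/EED-dKO mice carry the same deletion and in addition lack Aire. Both are on a C57BL/6 background, so both groups come from mice with the Eed deletion, which was not checked cell by cell, and no wild-type cell was analysed here. The cells were sorted as DAPI-CD45-EpCAM+Ly51-MHCII-high, 1 to a library. Batches 3 and 4 (age 4 days) and 8 and 9 (age 3 days) are EED-cKO, while batches 1, 2, 6 and 7 (age 4 days) are Aire/EED-dKO. Genotype and batch cannot be told apart, since each batch is of a single genotype. No label ties a cell to an animal, although the EED-cKO cells of 2 ages must come from different mice, so each genotype was treated as 1 sample, no test was made between genotypes, and the range over the 4 batches of a genotype stands beside the values that the comparisons turn on. The labels give no sex, but Xist, the RNA that coats the inactive X chromosome, was above the summed level of the Y-linked genes Ddx3y, Eif2s3y, Kdm5d and Uty in every EED-cKO cell of day 4, and the Y-linked level was above Xist in every EED-cKO cell of day 3 and in every Aire/EED-dKO cell. Of the 52 EED-cKO Kcna2/Prlr-high cells, 30 came from the day 4, Xist-expressing batches and 22 from the day 3, Y-expressing ones.

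The cells were found in both genotypes. Their share was 17.2% for EED-cKO (95% exact interval 13.1 to 21.9%, 52 cells) and 15.6% for Aire/EED-dKO (11.5 to 20.5%, 42 cells). The EED-cKO batches ranged from 11.7% to 20.6% and the Aire/EED-dKO batches from 7.46% to 19.7%, so the genotypes overlapped. The lowest share, 7.46%, was 5 of 67 cells of batch 7. The intervals cover counting error only.

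The score formed a range with a long upper end rather than a group set apart. It reached 1.59 in the highest cell, with a median of 1.01 in the Kcna2/Prlr-high cells and 0.301 in the other 478 cells. The 2 lowest cells taken had scores of 0.774 and 0.781, and the 2 highest cells left out had 0.772 and 0.763. Within 0.1 of the threshold lay 19 cells inside and 29 cells outside. Of the 9 genes, the Kcna2/Prlr-high cells had 5 to 9 at 10 reads per 1000000 reads of the cell (CPM) or more, with a median of 8, and the other cells had 0 to 9, with a median of 4. At least 6 of the genes were at that level in 91 of the 94 cells and in 23.8% of the 478 other cells. The plot of scores shows this upper end in both genotypes.

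**Figure D1:**
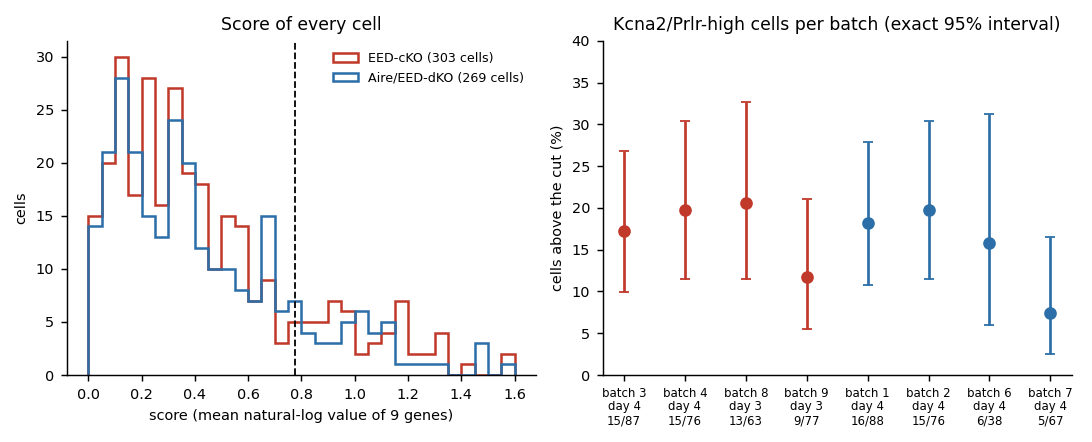
Left, the number of cells at each score (mean natural-log value of 9 genes) in EED-cKO and Aire/EED-dKO, with the threshold of 0.774 as a dashed line. Right, the percent of cells above it in each batch, with exact 95% intervals and the cells counted below. The batches of the genotypes overlap, from 7.46% to 20.6%.

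The 9 score genes were the basis of the choice, so their levels describe the group and are not a result. Levels are given per cell as the lowest, the median and the highest CPM. Kcna2, which encodes a voltage-gated potassium channel of the Kv1 family (chr3:107101146-107115005 in GRCm38), was at 0.709, 281.5 and 4203 CPM for EED-cKO and at 2.15, 265.3 and 1953 CPM for Aire/EED-dKO. Its medians in the other cells were 1.53 and 2.67 CPM, although single cells there reached 2936 and 568 CPM. Slc4a8, a sodium-driven chloride and bicarbonate exchanger (chr15:100761747-100823968), drew the most reads of the 9, with no allowance for gene length. It stood at 71.8, 1102 and 3693 CPM for EED-cKO and at 124.8, 1119 and 5013 CPM for Aire/EED-dKO, against medians of 83.4 and 85.7 CPM in the other cells. Slc4a8 also gave 25.7% of the score, more than any other of the genes, and Irx4 gave 3.52%, the least.

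Prlr, the receptor of prolactin (chr15:10177238-10349180), was less even. Its median was 110 CPM for EED-cKO and 63.3 CPM for Aire/EED-dKO, and the cells ranged from 0 to 757 CPM and from 0 to 653 CPM. Irx4, an Iroquois homeobox transcription factor, ranged from 0 to 340 CPM in EED-cKO and from 0 to 430 CPM in Aire/EED-dKO, with medians of 18.8 and 10.9 CPM. At least 10 CPM of Irx4 was found in 52 of the 94 cells, and of Prlr in 70. Clca3b, of the calcium-activated chloride channel regulator family, had medians of 36.05 and 132.2 CPM, and its cells ranged from 0 to 963 and from 0 to 1120 CPM.

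The other score genes were close to even between the genotypes. Tmem158, a membrane protein induced by Ras signalling, had medians of 211.02 and 251.5 CPM in EED-cKO and Aire/EED-dKO, and Sgsm1, a regulator of small GTPases, had 179.4 and 154.3 CPM. Adam12, a membrane metalloprotease, had 161.1 and 171.7 CPM, and Thsd7b, which carries thrombospondin type 1 repeats, had 120.5 and 173.7 CPM. Summed over the Kcna2/Prlr-high cells of each genotype, all 9 genes lay within 2-fold between EED-cKO and Aire/EED-dKO, with log2 ratios from -0.74 for Clca3b to 0.42 for Kcna2. Prlr, Thsd7b, Clca3b and Adam12 overlap another annotated gene, and reads were counted without strand, so reads of such neighbours cannot be told apart.

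**Figure D2:**
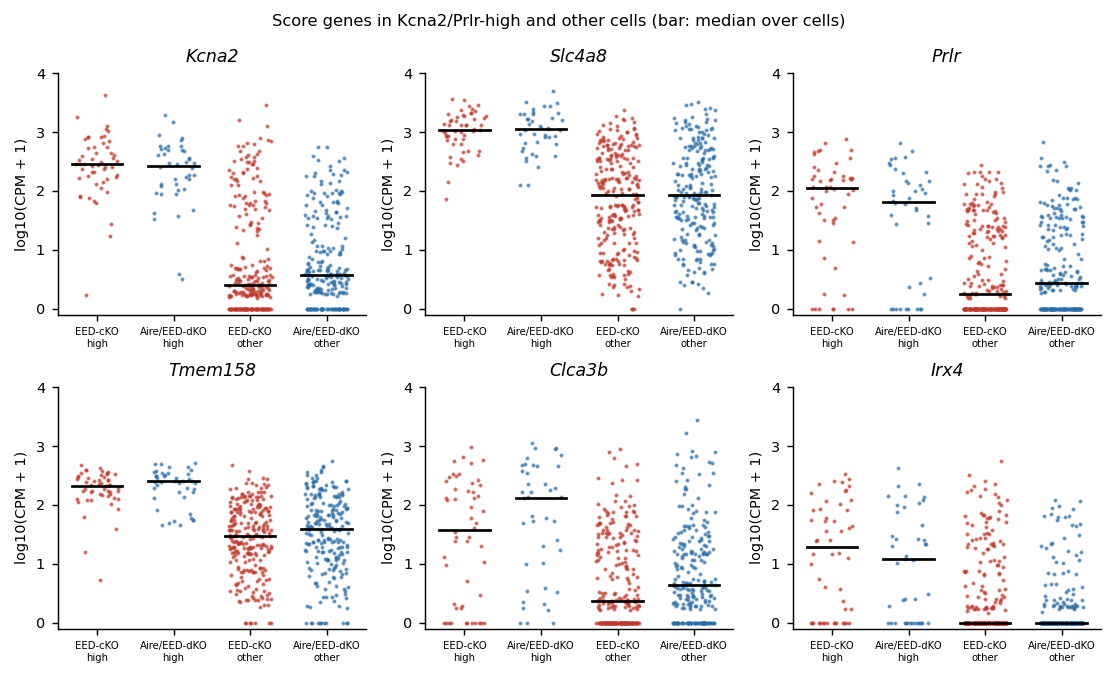
Each point is 1 cell, on a log10(CPM + 1) axis, for 6 of the score genes in the Kcna2/Prlr-high ("high") and other cells of each genotype. Bars are medians over cells. Kcna2 has medians of 281.5 and 265.3 CPM in the high cells and of 1.53 and 2.67 CPM in the others, while Irx4 is at 0 in part of the high cells.

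The promoters of 7 of the 9 genes are in the RefSeq promoter table for GRCm38.p6, as 10 annotated starts. CG pairs are shown because CG-rich starts are the usual sites of PRC2 in mammals. Of the 10 stretches of 250 bases upstream of a start, 4 held 10 or more CG pairs, against 37.8% of all 32851 promoters in the table. Slc4a8 and the upstream start of Sgsm1 held 16 each, Kcna2 18 and Irx4 22, while the most upstream start of Prlr held 6, which is also the median of all promoters. None of the 10 held TATAAA on either strand, which 12.4% of all promoters did. The 3 stretches below lie upstream of Slc4a8 (chr15:100761497-100761746, plus strand), Sgsm1 (chr5:113310787-113311036, minus strand) and Prlr (chr15:10176988-10177237, plus strand), overlap no annotated exon, and show a pair of CG-rich starts and one with the median number of CG pairs, 5′ to 3′, with every CG pair in capitals. As many CG pairs as in Slc4a8 or Sgsm1 were found in 25.4% of all promoters, and as many as in Prlr in 50.4%, so the counts describe these starts and set none of them apart.
Slc4a8: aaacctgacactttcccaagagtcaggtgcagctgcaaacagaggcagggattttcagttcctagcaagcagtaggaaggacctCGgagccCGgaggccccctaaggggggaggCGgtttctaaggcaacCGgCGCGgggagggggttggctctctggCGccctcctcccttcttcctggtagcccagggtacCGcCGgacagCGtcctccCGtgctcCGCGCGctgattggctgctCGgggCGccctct
Sgsm1: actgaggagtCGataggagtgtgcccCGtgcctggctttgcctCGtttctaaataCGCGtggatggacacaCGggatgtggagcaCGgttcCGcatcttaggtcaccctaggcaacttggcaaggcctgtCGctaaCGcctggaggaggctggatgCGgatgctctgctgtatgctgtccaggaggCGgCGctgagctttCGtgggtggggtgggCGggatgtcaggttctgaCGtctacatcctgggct
Prlr: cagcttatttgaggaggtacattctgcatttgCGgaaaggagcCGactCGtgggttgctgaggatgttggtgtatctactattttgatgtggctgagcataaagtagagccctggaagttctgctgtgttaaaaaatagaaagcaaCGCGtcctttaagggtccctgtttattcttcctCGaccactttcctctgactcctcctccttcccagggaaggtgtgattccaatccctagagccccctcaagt

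The targeted genes were checked first. Aire was at 558, 1705 and 3364 CPM (lowest, median and highest cell) in the EED-cKO Kcna2/Prlr-high cells and at 0, 7.62 and 324 CPM in the Aire/EED-dKO ones, so the groups did not overlap. Summed over cells, Aire was at 1592 CPM for EED-cKO (batches 1292 to 1814) and 17.5 CPM for Aire/EED-dKO (batches 7.35 to 45.7). Reads on Aire remained in 40 of the 42 Aire/EED-dKO cells. 1 Aire/EED-dKO cell outside the group reached 1665 CPM and held 36.9% of the Aire reads of the other cells of its genotype. Eed was at 10.2 CPM (batches 6.73 to 16.7) and 14.5 CPM (10.1 to 16.6), and as the count runs over the whole gene it does not show the deleted part. Suz12 and Ezh2, the partners of EED in PRC2, were at 70.0 and 74.1 CPM and at 39.9 and 53.6 CPM, with overlapping batches.

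Within EED-cKO, Aire was higher in the Kcna2/Prlr-high cells than in the other cells. The other EED-cKO cells ranged from 3.38 to 3706 CPM with a median of 566 CPM, so single cells of both groups overlapped. Above 1000 CPM were 46 of the 52 Kcna2/Prlr-high cells (88.5%) and 30.7% of the others. The log2 ratio of the summed levels was 1.17, and it was 1.07 to 1.25 in the 4 batches. In Aire/EED-dKO the same ratio was -0.43, with batches from -2.74 to 1.64, and it was 0.51 without batch 7. Aire was not in the score. Aire also overlaps another annotated gene.

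Beyond the score genes, a small set of genes was higher in the Kcna2/Prlr-high cells of both genotypes. A gene was counted when its level, summed over cells with 0.1 CPM added, was at least 2-fold that of the other cells in each genotype and above it in all 8 batches. Among 29858 genes that had 5 or more reads in 5 or more cells, 0.405% were higher by this rule, the 9 score genes and 91 protein-coding genes in all among them, and 5.18%, or 1547 genes, were lower. Both shares are descriptions, since the cells were picked on their RNA. The number lower depends on how many cells are summed, as a gene read in few cells is easily missed in 52 or 42 cells: with as many other cells as Kcna2/Prlr-high cells in each batch, a choice made after seeing the data, 0.452% were higher and 1.32% lower, and 57.9% of the genes called higher were called again. Over all genes the median log2 ratio was -0.27 for EED-cKO and -0.15 for Aire/EED-dKO.

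Of the 10 protein-coding genes with the largest mean log2 ratio, Siglec15, a sialic acid-binding receptor, was at 0, 39.7 and 180.9 CPM for EED-cKO and at 0, 47.4 and 172.96 CPM for Aire/EED-dKO, against medians of 0.818 and 1.45 CPM in the other cells. Its log2 ratios to the other cells were 3.13 (batches 2.66 to 3.70) and 2.08 (1.49 to 2.32). Slc14a1, a urea transporter, had medians of 95.9 and 117.7 CPM against 0.910 and 3.72 CPM, and log2 ratios of 2.38 (batches 1.66 to 3.35) and 1.59 (0.25 to 2.06). Single cells overlapped for both genes, as the other cells reached 91.3 and 110.8 CPM for Siglec15 and 621 and 815 CPM for Slc14a1.

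Scrt2, a zinc finger repressor of developing neurons, had medians of 36.7 and 25.8 CPM against 0 and 0, with log2 ratios of 2.18 (batches 1.26 to 4.33) and 2.23 (0.14 to 3.09). Dact3, an antagonist of Wnt signalling, had medians of 35.5 and 13.8 CPM against 2.07 and 0, with ratios of 2.17 (2.07 to 2.27) and 1.88 (0.34 to 2.35). Ntm, a cell adhesion molecule of neurites, had medians of 28.6 and 37.7 CPM against 1.16 and 0.684, with ratios of 1.47 (1.21 to 1.75) and 2.38 (1.98 to 2.94). Batch 6 of Aire/EED-dKO was the lowest for Slc14a1, Scrt2 and Dact3. These 3 genes were read in most Kcna2/Prlr-high cells, with at least 5 reads in 76.2% to 90.4% of them.

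Kcnj5, an inward rectifier potassium channel, was the most uneven of the 10. It had a median of 0.363 CPM but a maximum of 843 CPM in EED-cKO, and 1 cell held 21.3% of its reads, with log2 ratios of 2.86 (batches 0.33 to 3.90) and 2.71 (2.53 to 3.64). Lmo3, a LIM-domain transcription cofactor, had ratios of 2.29 (1.96 to 2.97) and 2.31 (0.37 to 3.80), Camkv, a kinase-like calmodulin-binding protein of neurons, 1.21 and 2.75, and Plppr1, a phospholipid phosphatase-related protein of neurons, 1.09 and 2.62. The lowest batches were at 0.35 for Camkv and 0.48 for Plppr1, both in EED-cKO. Gm36210, a predicted gene, had 1.94 (0.22 to 2.05) and 2.02 (2.00 to 2.41) at levels of 4.87 and 2.68 CPM. Lmo3, Camkv, Ntm and Plppr1 overlap another annotated gene.

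The 10 genes with the lowest ratios were at 4.38 CPM or less in the Kcna2/Prlr-high cells. Ccl20, a chemokine that draws CCR6-bearing cells, was at 0.454 CPM (95% exact Poisson interval 0.306 to 0.647) for EED-cKO and 0.506 CPM (0.321 to 0.759) for Aire/EED-dKO, and at 38.1 and 20.7 CPM in the other cells. Its highest Kcna2/Prlr-high cells had 5.10 and 4.30 CPM, and the highest other cells 1001 and 1089 CPM. Krtdap, a keratinocyte protein, had log2 ratios of -5.32 and -4.45, and Lpl, lipoprotein lipase, -6.20 and -4.03. Car12, a carbonic anhydrase, had -5.95 and -3.55, Tmprss2, a membrane serine protease, -4.31 and -4.91, and Padi2, a peptidylarginine deiminase, -4.89 and -4.17.

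Pkhd1, a protein of primary cilia in kidney and liver, had log2 ratios of -5.04 and -4.03, and Cyp3a13, a cytochrome P450, had -4.37 and -6.30. Clrn3, a clarin family protein, had -4.42 and -4.86, and C130074G19Rik -5.75 and -5.15. Tmprss2 was at 4.38 CPM for EED-cKO and 4.14 CPM for Aire/EED-dKO, against 89.1 and 127.5 CPM in the other cells. Each of the 10 was at 5 or more reads in at most 26.2% of the Kcna2/Prlr-high cells of a genotype. Over the settings the weakest Aire/EED-dKO log2 ratios were -1.58 for Ccl20, -1.91 for Padi2 and -2.51 for Cyp3a13. All 10 stayed at least 2-fold lower in both genotypes.

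Genes that define mTEC-high were present in the Kcna2/Prlr-high cells of both genotypes. The 12 mature mTEC-high markers summed to 8514 CPM for EED-cKO (batches 7445 to 9561) and 7281 CPM for Aire/EED-dKO (6361 to 7646). Aire is one of them. In EED-cKO 11 of the 12 were higher than in the other cells, with a median log2 ratio of 0.63 against -0.27 over all genes, and in Aire/EED-dKO 4 of the 12 were higher, with a median of -0.22 against -0.15. None was called higher or lower against the other cells, as were 0.405% and 5.18% of all genes. H2-Aa, a chain of MHC class II, was at 811, 1049 and 2857 CPM for EED-cKO and at 761, 1193 and 2724 CPM for Aire/EED-dKO. It was higher than in the other cells in all 4 EED-cKO batches, by 0.03 to 0.07 on the log2 scale, and lower in all 4 Aire/EED-dKO batches, with log2 ratios from -0.46 to -0.16. H2-Ab1, the partner chain, had summed levels of 956 and 1047 CPM and log2 ratios of 0.08 and -0.27. Cd80, a costimulatory ligand of T cells, was at 11.1, 140 and 680 CPM and at 45.1, 190.9 and 1381 CPM, with log2 ratios to the other cells of 0.86 (batches 0.39 to 1.15) and -0.08 (-0.87 to 0.30).

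The scale matters for small ratios. Scaling by edgeR's TMM instead of library totals added 0.21 to the EED-cKO log2 ratios of Kcna2/Prlr-high to other cells and 0.10 to the Aire/EED-dKO ones, and DESeq2 size factors added 0.25 and 0.12, less for genes near the 0.1 CPM added. The H2-Aa ratios of 0.06 and -0.26 kept their signs under both, and -0.08 for Cd80 in Aire/EED-dKO became 0.02 and 0.04. With as many other cells as Kcna2/Prlr-high cells, H2-Aa was at -0.05 and H2-Ab1 at -0.03 in EED-cKO. The H2-Aa ratio of EED-cKO was also negative without cycling cells. Between the genotypes of the Kcna2/Prlr-high cells the shift was 0.0028 and 0.0063.

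Signalling genes gave a mixed picture. The 14 genes of RANK, CD40 and NF-kB signalling, the pathways that mature mTEC, summed to 4737 CPM for EED-cKO and 4613 CPM for Aire/EED-dKO, with 10 of 14 and 6 of 14 above the other cells. Tnfrsf11a, which encodes RANK, had medians of 865 and 891 CPM. The 10 genes of prolactin receptor signalling, Prlr among them, summed to 2281 and 1740 CPM, and only Prlr, a score gene, was called higher, against 0.405% of all genes. For EED-cKO 6 of the 10 were higher (median log2 ratio 0.18) and for Aire/EED-dKO 4 (median -0.31). Jak2, the kinase of the prolactin receptor, had log2 ratios of -0.04 (batches -0.10 to 0.01) and -0.68 (-0.98 to -0.34). Stat5a, a transcription factor activated by the prolactin receptor, had medians of 638 and 461 CPM against 325 and 274.9 CPM, with log2 ratios of 0.81 and 0.65, positive in all 8 batches. Of the 10 Kv1 channel genes only Kcna2, a score gene, was called higher. For EED-cKO 5 were higher and 5 lower, with a median log2 ratio of -0.09, and for Aire/EED-dKO 6 were higher and 3 lower, with a median of 0.04. Kcna1, a related channel subunit, had medians of 52.1 and 46.9 CPM against 0.968 and 4.06 CPM and log2 ratios of 1.26 and 0.88, with 1 Aire/EED-dKO batch at -0.32.

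None of the 11 PRC2 subunit and 12 canonical PRC1 genes was called, against 0.405% of all genes called higher and 5.18% lower. For so few genes this says little. The 11 PRC2 subunit genes summed to 1521 and 1549 CPM in the Kcna2/Prlr-high cells of EED-cKO and Aire/EED-dKO and to 1194 and 1326 CPM in the other cells. Of the 11 genes, 3 exceeded the other cells for EED-cKO and 5 for Aire/EED-dKO. Jarid2, an accessory subunit of PRC2, had medians of 597 and 689 CPM against 241.7 and 448 CPM. The 12 canonical PRC1 genes had median log2 ratios of 0.05 and 0.13. Of 39 Hox genes, targets of PRC2, 8 were higher for EED-cKO and 21 for Aire/EED-dKO. None was called higher and 7, Hoxb2, Hoxb3, Hoxb13, Hoxc8, Hoxc10, Hoxd10 and Hoxd11, were called lower, which is 17.9% against 5.18% of all genes. Their summed level was 106.4 CPM for EED-cKO (batches 33.7 to 175.5) and 98.9 CPM for Aire/EED-dKO (63.9 to 118.5). Of the 6 Iroquois genes only Irx4, a score gene, was called higher (16.7%, against 0.405% of all genes). Irx6 was called lower (16.7%, against 5.18%).

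Transcription factors of other lineages differed in direction from one to the next. Insm1, Cdx1 and Spib were above the other cells in both genotypes. Grhl1, a factor of keratinocytes, was called lower, with log2 ratios of -1.43 and -1.06, and Foxa1, a factor of airway, had -0.17 and -0.88. Pou2f3, the factor of tuft cells, had -1.62 and 1.23, the latter with batches from -1.13 to 3.33 and at -0.12 with as many other cells as Kcna2/Prlr-high cells. Trp73, a factor of ciliated cells, had -4.27 and 0.09. The latter had batches from -4.25 to 3.13, at 4.20 CPM or less, and ran from -1.07 to 1.32 over the settings. In the other EED-cKO cells Trp73 was at 15.4 and 6.24 CPM in the day 4 batches and at 0.372 and 1.06 CPM in the day 3 batches. Gcm2, the factor of the parathyroid, had -5.82 and -0.71. In the other EED-cKO cells Gcm2 was at 21.8 CPM in batch 4 and at 0.169 to 2.94 CPM in the remaining batches. In the other Aire/EED-dKO cells it was at 0.236 CPM or less. The EED-cKO ratio of Gcm2 thus rested largely on batch 4 and the Aire/EED-dKO one on the 0.1 CPM added. Over the settings they ran from -8.00 to -0.39 and from -1.78 to 0.29. Insm1, a factor of endocrine cells, had a median of 203.6 CPM for EED-cKO and 333 CPM for Aire/EED-dKO against 15.7 and 169.3 CPM in the other cells, with log2 ratios of 1.65 and 0.73. Cdx1, a factor of the intestine, had medians of 335 and 237.9 CPM against 61.1 and 116.7 CPM, with ratios of 1.61 and 0.81. Spib, a factor of microfold cells and lymphocytes, had medians of 663 and 551 CPM against 388 and 258.2 CPM, with ratios of 0.62 and 0.90. Cdx1 and Spib were above the other cells in all 8 batches, and Insm1 in 7 of 8, with -0.04 in the last.

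Chga of endocrine cells was at 6.89 and 9.83 CPM against 36.1 and 20.5 CPM. Apob, an apolipoprotein of gut and liver, was at 0.393 and 1.98 CPM against 94.4 and 34.8 CPM, and with as many other cells as Kcna2/Prlr-high cells its Aire/EED-dKO log2 ratio was 0.07 in place of -4.07. Ccl9, a chemokine of microfold cells, was at 5.65 and 1.45 CPM against 74.1 and 44.8 CPM. In the lists of 8 keratinocyte, 8 enterocyte and hepatocyte and 6 microfold markers, 3, 4 and 3 genes were called lower (37.5%, 50% and 50%, against 5.18% of all genes) and none higher. Of the 7 endocrine markers 1 was called lower (14.3%), and 2 were higher for EED-cKO and 4 for Aire/EED-dKO, with median log2 ratios of -0.64 and 0.08. Among them Ret, a receptor of neurotrophic factors, had log2 ratios of -0.85 (batches -1.81 to 2.84) and 1.00 (batches -1.40 to 2.35). In the 7 tuft markers none was called, against 5.18% of all genes called lower.

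Thymocytes and cTEC, cortical thymic epithelial cells, are meant to be removed by the CD45- and Ly51- gates of the sort. Summed over each list, their markers were at levels lower than or like those of the other cells. The 8 thymocyte markers summed to 163.1 and 153.5 CPM in the Kcna2/Prlr-high cells and to 168.1 and 157.3 CPM in the others, and Ptprc, which encodes CD45, had a median of 0 in each group and summed levels of 0.892 and 19.9 CPM against 14.2 and 17.9 CPM. The 6 cTEC markers summed to 161.95 and 165.4 CPM against 266.9 and 387 CPM. Their sum was lower than in the other cells in every batch, with log2 ratios of -0.72 and -1.23. Of these markers 1 (16.7%, against 5.18% of all genes) was called lower. The 10 cycling markers summed to 174.1 CPM for EED-cKO and 233.5 CPM for Aire/EED-dKO, against 804 and 287.7 CPM in the other cells. Their sum was lower than in the other cells in every EED-cKO batch (log2 ratios -2.47 to -1.66). In Aire/EED-dKO it was higher in 2 of 4 batches (-1.62 to 1.08), and 4 of the 10 markers were higher. The summed markers exceeded 1000 CPM in 3 of 52 EED-cKO cells and 2 of 42 Aire/EED-dKO Kcna2/Prlr-high cells, and in 16.3% and 4.41% of the others. Without these cells 0.496% of genes were higher and 6.14% lower, and Aire had a log2 ratio of 1.02 in EED-cKO. In the plot of gene lists the keratinocyte, tuft and ciliated lists lie left of 0 in both genotypes. Gene by gene, all 7 tuft and all 6 ciliated genes were lower for EED-cKO, while for Aire/EED-dKO 5 of 7 tuft genes were lower and 4 of 6 ciliated genes higher (median log2 ratio 0.12). Of the ciliated genes 1 (16.7%, against 5.18% of all genes) was called lower. The endocrine, microfold and enterocyte lists, which hold Insm1, Spib and Cdx1, lie right of it, although in EED-cKO 5 of 7, 4 of 6 and 6 of 8 of their genes were lower than in the other cells, and in Aire/EED-dKO 3 of 7, 4 of 6 and 6 of 8. The summed level of the latter pair was higher in 2 of 4 EED-cKO batches.

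**Figure D3:**
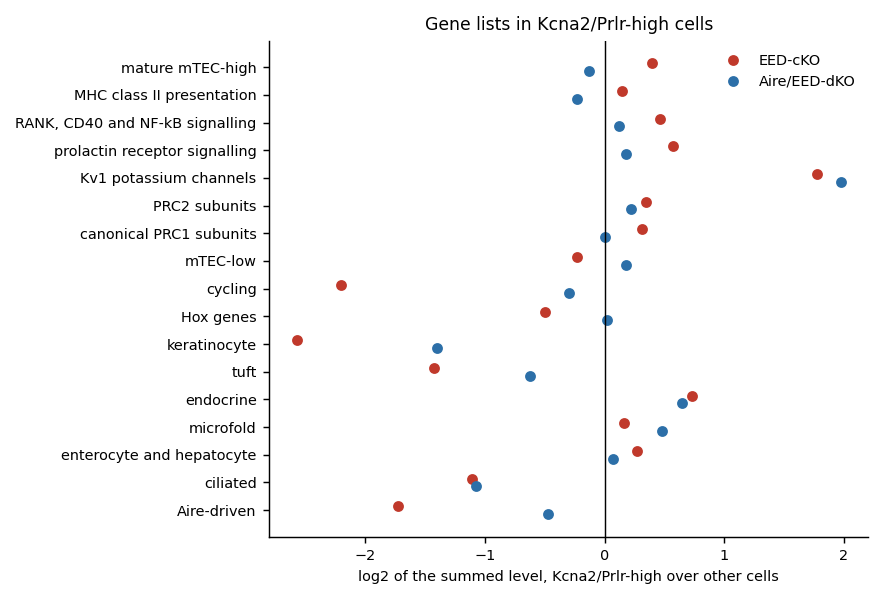
For 17 gene lists, the log2 ratio of the summed level in Kcna2/Prlr-high over other cells, in EED-cKO and Aire/EED-dKO. The Kv1 list (1.77 and 1.98) holds the score gene Kcna2. The keratinocyte list (-2.58 and -1.40) and the Aire-driven genes (-1.73 and -0.47) lie left of 0 in both genotypes.

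The EED-cKO Kcna2/Prlr-high cells, although higher in Aire, had less RNA of Aire-driven genes than the other EED-cKO cells. These are 430 genes for which the study's table of bulk WT and Aire-KO mTEC-high names cluster 3 of its scMulti-seq, the Aire-expressing cells, as the only highly expressing cluster, in the rows of that table that are held, without Aire itself. The study's own Aire-driven genes were chosen from scMulti-seq alone, so the lists need not be the same. Their summed level per cell was 466, 1769 and 9648 CPM (lowest, median and highest) in the EED-cKO Kcna2/Prlr-high cells and 524, 6541 and 65374 CPM in the other EED-cKO cells. In Aire/EED-dKO it was 220, 1144 and 2666 CPM and 469, 1489 and 6434 CPM. The medians thus differed more within EED-cKO than within Aire/EED-dKO, while single cells overlapped.

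Summed over cells, the Aire-driven genes gave 2339 CPM in the EED-cKO Kcna2/Prlr-high cells (batches 1734 to 3192) and 7766 CPM in the other EED-cKO cells (5102 to 10395), a log2 ratio of -1.73 that was negative in all 4 batches (-2.46 to -1.35). In Aire/EED-dKO they gave 1226 CPM (1177 to 1294) here and 1699 CPM (1572 to 1861) there, or a log2 ratio of -0.47 (-0.60 to -0.34). Every EED-cKO batch had a lower ratio than every Aire/EED-dKO batch. Between the genotypes, EED-cKO was above Aire/EED-dKO by a log2 ratio of 0.93 in the Kcna2/Prlr-high cells and of 2.19 in the other cells. The EED-cKO batches of Kcna2/Prlr-high cells, at 1734 CPM or more, still all lay above the Aire/EED-dKO batches, at 1294 CPM or less.

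The same order was seen in the number of Aire-driven genes per cell. With each cell thinned at random to 200000 reads, so that depth was equal, the EED-cKO Kcna2/Prlr-high cells had reads on 29, 47.5 and 87 of the 430 genes and the other EED-cKO cells on 21 at the lowest, 68 at the median and 37.4% of the list at the highest. In Aire/EED-dKO the numbers were 19, 41.5 and 65 and 22, 45 and 94. Without thinning, the medians were 20.9% and 24.9% of the list for EED-cKO and 17.1% and 15.8% for Aire/EED-dKO. The number of all genes read at equal depth was alike, with medians of 12218 and 12090 in EED-cKO and 12421.5 and 12043 in Aire/EED-dKO. In each EED-cKO batch the median was lower in the Kcna2/Prlr-high cells (45, 51, 45 and 49 in batches 3, 4, 8 and 9) than in the others (75, 74, 52.5 and 58). The difference was thus larger in the day 4 than in the day 3 batches, which also differ in Xist and Y-linked reads, and age and sex cannot be told apart here.

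Gene by gene, 403 of the 430 Aire-driven genes were lower in the EED-cKO Kcna2/Prlr-high cells than in the other cells, and 27 were higher. The median log2 ratio was -3.10 for EED-cKO and -0.52 for Aire/EED-dKO, against -0.27 and -0.15 over all genes. None was called higher and 74 were called lower in both genotypes, 17.2% against 5.18% of all genes. Between EED-cKO and Aire/EED-dKO the median was 0.53 in the Kcna2/Prlr-high cells and 3.33 in the other cells. Each EED-cKO batch taken alone against all Aire/EED-dKO cells of the kind gave a median of 0.00 to 0.16 in the Kcna2/Prlr-high cells and 1.65 to 3.48 in the other cells. The median of 0.53 was 0.30 with the day 4 and 0.18 with the day 3 EED-cKO batches alone, and 0.16 with 1 CPM added. These medians depend on the 0.1 CPM added, since 20 of the genes had no read in the EED-cKO and 49 none in the Aire/EED-dKO Kcna2/Prlr-high cells, and with as many other cells as Kcna2/Prlr-high cells those against the other cells were -2.88 and -0.22 and the summed log2 ratios -1.998 and -0.51. Tgfbi, an extracellular matrix protein, was at 150 CPM in the EED-cKO Kcna2/Prlr-high cells and 238.7 CPM in the others, and at 88.9 and 70.2 CPM in Aire/EED-dKO, where 2 of 4 batches were lower.

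Within neither group of EED-cKO cells did the number of Aire-driven genes follow the Aire level closely. Spearman's rank correlation between them was 0.28 over the 52 Kcna2/Prlr-high cells and 0.16 over the others. In Aire/EED-dKO, which lacks Aire, it was 0.29 and 0.27. These are a description of cells that share batches and depth. The plot of Aire against Aire-driven genes shows the Kcna2/Prlr-high cells within the range of the other EED-cKO cells in both measures, with more Aire and fewer Aire-driven genes at the median.

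**Figure D4:**
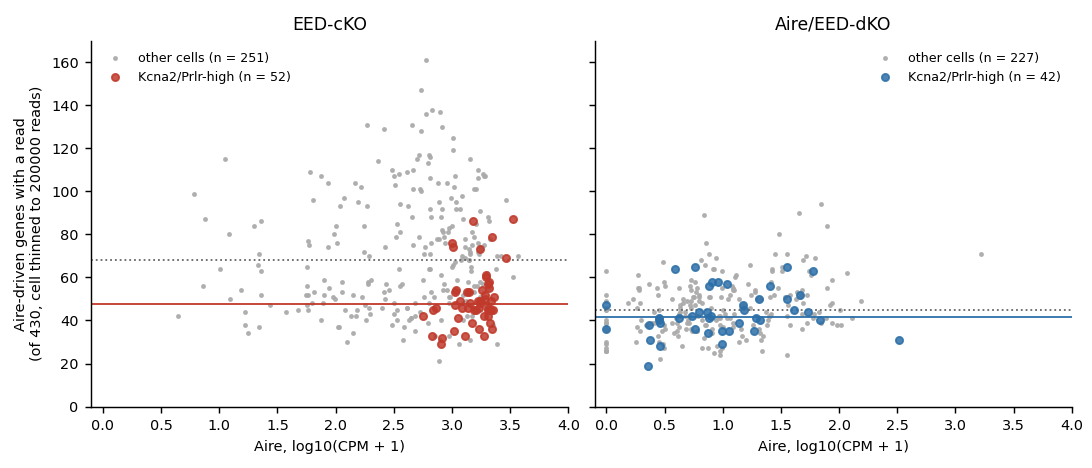
Each point is 1 cell. The horizontal axis is the Aire level as log10(CPM + 1), and the vertical axis is the number of the 430 Aire-driven genes with a read when the cell is thinned to 200000 reads. Solid lines are the medians of Kcna2/Prlr-high cells (47.5 for EED-cKO and 41.5 for Aire/EED-dKO) and dotted lines those of the other cells (68 and 45).

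The comparison of genotypes within the state asks which genes differ when Aire is missing from cells of like score. Between EED-cKO and Aire/EED-dKO Kcna2/Prlr-high cells the median log2 ratio over all genes was 0.00. At least 2-fold higher in EED-cKO were 2947 genes (9.87%) and at least 2-fold lower 2767 (9.27%). With the further condition that the levels of all 4 batches of one genotype lie above all 4 of the other, 0.948% of genes were higher and 0.841% lower, and 62.5% of the former and 39.4% of the latter were protein-coding. The EED-cKO batches span both ages and both patterns of Xist and Y-linked reads. Genes counted here thus differ in the same direction from the Aire/EED-dKO batches in EED-cKO batches of either age. The Aire/EED-dKO batches are all of day 4 and Y-expressing, and genotype and batch still cannot be told apart. Leaving out the day 3 or the day 4 EED-cKO batches in turn, which asks for fewer batches apart, gave 3.78% and 4.30% of genes higher and 5.01% and 2.53% lower. Of the genes called higher, 46.3% were also at least 2-fold higher in EED-cKO among the other cells, and 19.8% were lower in EED-cKO there. Of those called lower, 26.3% were also at least 2-fold lower there and 35.5% were higher. Over all genes tested, 18.5% were at least 2-fold higher and 7.21% at least 2-fold lower in EED-cKO among the other cells, while 39.6% were lower and 60.4% higher. Of the genes called higher for the state, 0.405% of those tested, none was called higher here and 2 were called lower. Over all genes the shares were only 0.948% and 0.841%. In so small a set these counts cannot show whether the state genes differ from other genes in this respect. Of the 430 Aire-driven genes, 21 (4.88%) were called higher and 3 (0.698%) lower.

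Aire had the largest log2 ratio, 6.4998. Of the other 11 genes of the 12 that the rule named as higher, Trim30a, an interferon-induced regulator of inflammation, was the most even over EED-cKO cells, as its highest cell held 13.2% of its reads. It was at 0, 15.1 and 185.9 CPM for EED-cKO and at 0, 0 and 43.1 CPM for Aire/EED-dKO, with at least 5 reads in 65.4% and 11.9% of cells. Summed, it was at 24.1 CPM (batches 16.8 to 31.4) and 3.10 CPM (0.300 to 6.08). The log2 ratio was 2.92, and in the other cells it was 3.25. Rd3, a retinal protein that regulates guanylate cyclase, was at 0, 15.1 and 277.05 CPM and at 0, 0.768 and 30.8 CPM, with a ratio of 2.79 here and 1.93 in the other cells. Single cells of the genotypes overlapped for both genes.

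Gfra3, the receptor of the neurotrophic factor artemin, was at 0, 23.2 and 616 CPM for EED-cKO and at 0, 0 and 40.3 CPM for Aire/EED-dKO. Its batches were at 30.5 to 94.9 CPM and 2.46 to 11.5 CPM, a log2 ratio of 3.14. It was also above the other EED-cKO cells, by a log2 ratio of 1.85 (batches 0.93 to 3.62). Ccl5, a chemokine that attracts T cells, was at 0, 5.37 and 625 CPM and at 0, 1.64 and 21.5 CPM, a ratio of 3.396 with batches at 9.92 to 57.9 CPM and 0.300 to 4.68 CPM. Over the settings the Ccl5 ratio ran from 1.04 to 4.06. Crispld2, a secreted cysteine-rich protein, had at least 5 reads in 48.1% of the EED-cKO cells against 4.76%, and a ratio of 3.86.

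The other 6 rested on few cells. A single cell held 69.5% of the EED-cKO reads of Elf5, a transcription factor of gland epithelium, 70.5% of those of Insrr, an insulin receptor-related kinase, and 70.4% of those of Comp, a cartilage matrix protein. The same was true of 79.7% of the reads of H2-Q10, a secreted class I molecule, 57.2% of those of Arhgap22, a GTPase activator, and 52.5% of those of Serpinb2, a serpin. Without the highest cell of each genotype their log2 ratios were 3.84, 4.05, 2.75, 1.18, 2.13 and 1.95, in place of 4.80, 4.34, 3.99, 3.27, 3.15 and 2.63. Without those cells these 6 were still at least 2-fold higher. Over all settings the weakest ratio of Serpinb2 was 0.97, less than 2-fold. Aire, Insrr, Crispld2, Arhgap22, Trim30a, Rd3 and Serpinb2 overlap another annotated gene.

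Of the 12 genes named as lower in EED-cKO, Amigo2, an adhesion molecule of neurons, was read in the largest share of cells. It was at 0, 0 and 85.9 CPM for EED-cKO and at 0, 15.1 and 345 CPM for Aire/EED-dKO, with at least 5 reads in 25.0% and 66.7% of cells and a log2 ratio of -1.91. Nkx2-4, a homeobox factor, was at 0, 0 and 24.5 CPM and at 0, 4.67 and 74.4 CPM, with a ratio of -2.45 and batches at 0.352 to 2.41 CPM and 2.85 to 15.9 CPM. In the other cells its ratio was 0.05. Iqgap2, a scaffold of the actin cytoskeleton, was at 4.54 CPM (batches 3.96 to 5.11) and 32.0 CPM (14.4 to 52.4), a ratio of -2.79, and Ndnf, a secreted neurotrophic factor, at 6.91 CPM (2.43 to 12.4) and 35.6 CPM (18.3 to 84.3), a ratio of -2.35.

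Frem2, an extracellular matrix protein of the basement membrane, had a log2 ratio of -3.32, with at least 5 reads in 9.62% and 40.5% of cells. Serpina3j, a serine protease inhibitor, had -2.96, with 9.62% and 40.5% as well, and Mylk3, the myosin light chain kinase of the heart, had -2.24, with 17.3% and 38.1%. Gcsam, a signalling protein of germinal centre B cells, had -2.26 and Il13ra2, a decoy receptor of interleukin 13, had -2.15. Polq, a DNA polymerase of end joining, had -3.29, Lrp2, an endocytic receptor, -2.86, and Myf5, a myogenic factor, -2.86, and for these 3 genes a single cell held between 30.5% and 73.1% of the reads of a genotype. Without the highest cell of each genotype the 12 ratios lay between -3.96 for Lrp2 and -1.95 for Il13ra2. Over all settings the weakest ratios were -0.50 for Mylk3, -0.71 for Gcsam and -0.95 for Polq, each less than 2-fold. The other genes named as lower stayed at least 2-fold lower. Iqgap2, Mylk3 and Amigo2 overlap another annotated gene. The plot of these genes by batch shows the gap between the genotypes for each.

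**Figure D5:**
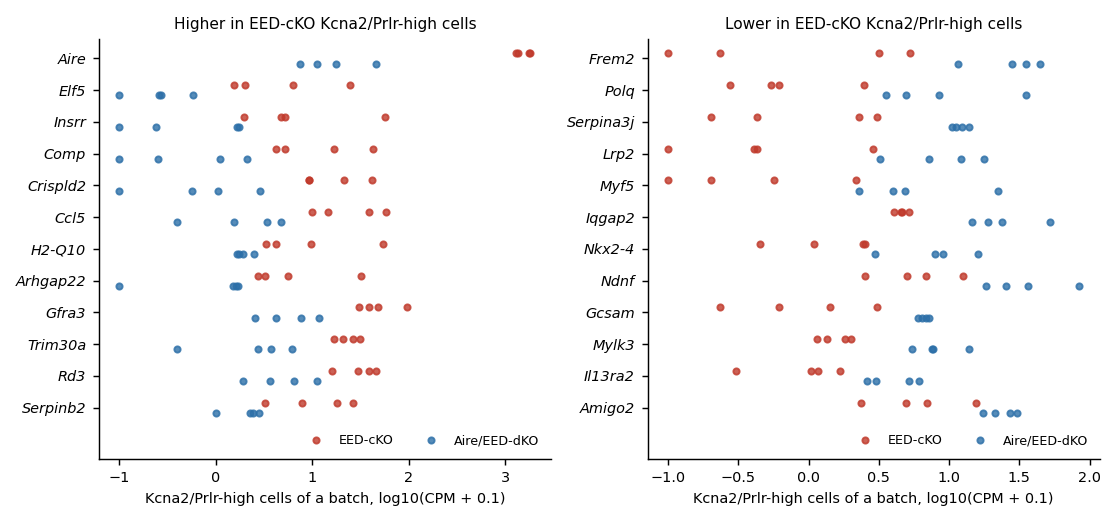
Level of the 12 genes named as higher (left) and the 12 named as lower (right) in EED-cKO Kcna2/Prlr-high cells. Each point is the summed level in the Kcna2/Prlr-high cells of 1 batch, as log10(CPM + 0.1), with 4 batches per genotype. All EED-cKO points lie to one side of all Aire/EED-dKO points, as the rule for naming them required.

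Some genes differed between the genotypes in one direction in the Kcna2/Prlr-high cells and in the other direction elsewhere. Gprin3, a G protein-regulated inducer of neurites, was at 126.5 CPM in the EED-cKO and 25.1 CPM in the Aire/EED-dKO Kcna2/Prlr-high cells, and at 42.9 and 91.4 CPM in the other cells. It was thus higher than in the other cells in all 4 EED-cKO batches (log2 ratios 0.58 to 2.22) and lower in all 4 Aire/EED-dKO batches (-4.12 to -0.11). Igf1, an insulin-like growth factor, was at 292.5 and 52.8 CPM against 292.6 and 470 CPM, with log2 ratios to the other cells from -0.22 to 0.47 in the EED-cKO batches and from -4.99 to -2.82 in the Aire/EED-dKO ones. Prag1, a pseudokinase, was at 53.4 and 20.9 CPM against 30.2 and 96.98 CPM. Rptn, a protein of the cornified envelope, was at 7.26 and 3.12 CPM against 21.6 and 92.7 CPM, and Chrna5, a nicotinic receptor subunit, at 16.3 and 2.77 CPM against 19.8 and 39.4 CPM, with 65.8% of its EED-cKO Kcna2/Prlr-high reads in 1 cell.

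In the opposite direction, Mfap5, a protein of elastic fibres, was at 4.31 and 8.601 CPM in the EED-cKO and Aire/EED-dKO Kcna2/Prlr-high cells and at 10.6 and 0.844 CPM in the other cells, so its log2 ratios to the other cells were -1.28 and 3.20. Dpysl5, a neuronal dihydropyrimidinase-like protein, was at 3.81 and 5.79 CPM against 51.2 and 4.82 CPM, Ptgr1, a prostaglandin reductase, at 2.00 and 3.92 CPM against 20.7 and 2.52 CPM, and Lrat, which esterifies retinol, at 2.06 and 14.8 CPM against 23.3 and 7.67 CPM, with 90.4% of its EED-cKO Kcna2/Prlr-high reads in 1 cell. Polq, named above, belongs here too, at 0.862 and 9.33 CPM against 15.2 and 6.87 CPM. Rptn, Igf1, Lrat and Dpysl5 overlap another annotated gene. These 10 genes were picked for the difference, so it is a description, and it was not tested, as each genotype was treated as 1 sample.

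Depth did not set the Kcna2/Prlr-high cells far apart from the others. Their total counts ranged from 335313 to 1715920 in EED-cKO and from 401951 to 1898910 in Aire/EED-dKO, with medians of 1355620 and 1079460, against medians of 1223880 and 893259 in the other cells. The number of genes per cell had medians of 15406.5 and 15524, against 15152 and 14678. EED-cKO cells were thus deeper than Aire/EED-dKO cells in both groups, and shares of cells with reads were also computed on thinned cells, where Trim30a was read in 61.5% and 11.9% of the Kcna2/Prlr-high cells and Amigo2 in 26.9% and 71.4%.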

How the data were processed

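RamDA-seq read counts per gene and cell were deposited by the authors for 572 cells. The authors trimmed reads with fastp 0.20.0, aligned them to mm10 with STAR 2.7.3a, removed reads of MAPQ under 5 and duplicates with SAMtools 1.9 and Picard 2.21.1, counted genes of Ensembl GRCm38 with HTSeq 0.11.2 without strand, and kept cells with over 200000 reads on over 8000 genes. There are no molecular identifiers, so duplicates were set by position. The deposited natural log values equal ln(count / total × 10000 + 1) within 5.3e-15, and the score was taken from them.

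All other values were computed here from the counts of 50197 genes with Python 3.11.15, numpy 2.4.6, scipy 1.17.1, pandas 2.3.3 and R 4.3.3. Counts were summed over the cells of a group, divided by the group's total and given as CPM, and log2 ratios used 0.1 CPM added. Total counts per cell of the Kcna2/Prlr-high cells ranged from 335313 to 1898910. Intervals are exact (Poisson for CPM, Clopper-Pearson for shares, 95%). They cover counting error only, as reads are not independent molecules. Genes with 5 or more reads in 5 or more cells were kept. A gene was called for the state at 2-fold in both genotypes and the same direction in all 8 batches, and between genotypes at 2-fold with no overlap of batches. As each genotype was treated as 1 sample, no p-value was computed, although a count test had been the choice for samples with replicates. The procedure was tested on simulated data.

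The cells, the gene lists and the rules were chosen with earlier results of these data known. Named genes were the score genes, Aire, Eed, Suz12, Ezh2, Cd80, H2-Aa, H2-Ab1 and Xist, the 10 called protein-coding genes per direction with the largest mean log2 ratio to the other cells, the 12 per direction with the largest ratio between genotypes, the 5 per direction whose genotype ratio differed most between Kcna2/Prlr-high and other cells, all read 5 times or more in 20% or more of a group's cells, and up to 3 genes per list with the highest summed level. Hoxb2, Hoxb3, Hoxb13, Hoxc8, Hoxc10, Hoxd10, Hoxd11, Irx6, Cxcl16, Tslp and Xcl1 were named as called list genes, after their values were seen. The Aire-driven genes come from a table of which a part is held. Alternatives were edgeR 4.0.16 TMM and DESeq2 1.42.0 size factors, other pseudocounts, filters, thresholds and scores, thinned cells, fewer batches and no cycling cells. Equal numbers of other cells, summed levels of the Aire-driven genes and leaving out the highest cell were chosen after seeing the data. Promoters came from RefSeq, GRCm38.p6. Plots were drawn with matplotlib 3.10.9. Of the list genes that the naming rule covers, only some are described in the text, and the others enter the list counts and sums.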

Additional observations from a re-analysis of the deposited data

Results flagged for a closer look

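In 18 of 120 groups of 4 batches that were checked, 1 batch stood apart from the other 3, relative to the range of the group. The distance can be small where the other 3 lie close together, as for Dact3. Chance gives such a batch in about 1 of 20 groups when values are independent and normally distributed. The groups here share cells and genes, and many genes were picked from these data. The 18 groups therefore cannot be set against that rate. Among the EED-cKO batches, each of the 4 stood apart for some gene. The log2 ratio of Kcna2/Prlr-high to other cells was 3.70 for Siglec15 in batch 4, 2.27 for Dact3 in batch 3, 1.85 for Chrna5 and -4.50 for Ptgr1 in batch 8, and -6.93 for Polq in batch 9. In level, the Kcna2/Prlr-high cells of batch 4 were at 56.6 CPM for Insrr, 53.5 CPM for H2-Q10, 31.5 CPM for Arhgap22 and 2.75 CPM for Lrp2, and those of batch 8 at 2.39 CPM for Polq. For Insrr, H2-Q10, Arhgap22 and Lrp2, a single cell held 70.5%, 79.7%, 57.2% and 73.1% of the EED-cKO reads.

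Among the Aire/EED-dKO batches, the one that stood apart was batch 7 in all 8 instances, which had 5 Kcna2/Prlr-high cells. It had log2 ratios to the other cells of -9.03 for Pkhd1, -7.66 for Chrna5 and -4.99 for Igf1, and a median of -1.16 over the Aire-driven genes. In level, its Kcna2/Prlr-high cells were at 0.0 CPM for Arhgap22, 34.9 CPM for Polq and 22.3 CPM for Myf5, and its other cells at 49.6 CPM for Aire. Without this batch the Aire log2 ratio of Aire/EED-dKO was 0.51 in place of -0.43.

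Of 42 genes, 3 moved one way in every EED-cKO batch and the opposite way in every Aire/EED-dKO batch when Kcna2/Prlr-high cells were set against other cells. The EED-cKO log2 ratio exceeded the Aire/EED-dKO one by 0.31 for H2-Aa and 3.42 for Gprin3, and the difference was -2.50 for Nkx2-4. These differences were not tested. Gprin3 had been named because its ratios to the other cells lay apart between the genotypes. Nkx2-4 had been named because its levels in the Kcna2/Prlr-high batches lay apart. Their return here is therefore no separate result. H2-Aa in EED-cKO was at -0.05 in place of 0.06 with as many other cells as Kcna2/Prlr-high cells, and it was also negative without cycling cells.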

How the results depend on the processing

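No paired analysis was possible because no batch holds both genotypes, and the ratios to other cells, also taken within each of the 8 batches, had no test. Under the 35 settings other than the reported one, none of the main values changed sign, and of the called named genes only Apob did, with an Aire/EED-dKO log2 ratio of 0.0663 with as many other cells as Kcna2/Prlr-high cells. Of the log2 ratios to other cells of named genes that were not called, 54 (37.8%) changed sign in at least 1 setting. Among these were Aire in Aire/EED-dKO, at 0.51 without batch 7, and Cd80 in Aire/EED-dKO, at 0.02 with TMM. The cause of the shifts was not tested, except that fewer batches or cells by construction change how often batches lie apart. The genes higher in EED-cKO Kcna2/Prlr-high cells, 0.948% of those tested, became 1.81% with the 60 highest cells, 1.82% with batches of at least 8 such cells, 3.78% with day 4 and 4.30% with day 3 EED-cKO batches alone, and 0.479% with 1 CPM added. The lower genes, 0.841%, became 3.16%, 3.64%, 5.01%, 2.53% and 0.445% in the same settings, 1.32% with 130 cells, 1.27% without Kcna2 in the score and 1.80% without cycling cells. Against other cells, 0.405% higher became 0.666% with TMM, 0.707% with DESeq2 size factors and 0.720% with 10 reads in 10% of cells, and 5.18% lower became 10.2% with 60 cells, 2.75% with 1 CPM and 1.32% with equal cell numbers. The Aire log2 ratio of EED-cKO was 1.38 with TMM, 1.42 with DESeq2 size factors, 1.02 without cycling cells, 1.01 without Slc4a8 in the score and 0.92 with equal cell numbers. With 60 cells the EED-cKO share was 10.9% and the Aire/EED-dKO share 10.04%, the latter 23.8% with 130 cells.

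For the Aire-driven genes, the median between genotypes in Kcna2/Prlr-high cells was 0.90 with 130 cells, 0.41, 0.40 and 0.66 without Kcna2, Thsd7b or Adam12 in the score, 0.16 with 1 CPM, 0.86 with 0.01 CPM, 0.30 at day 4, 0.18 at day 3 and 0.76 in thinned cells. In other cells it was 2.27 with 1 CPM, 1.97 with 10 reads in 10% of cells and 2.42 at day 3, and the summed ratio was 1.62 and 1.66 in the last pair. The median against other cells was -2.15 with 1 CPM, -1.97 with 10 reads in 10% of cells and -3.90 at day 4 for EED-cKO, and -0.16 with 1 CPM for Aire/EED-dKO.

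Leaving out 1 batch at a time gave 1.41 to 1.82% of genes higher and 1.09 to 1.88% lower between genotypes, 0.395 to 0.502% higher and 5.34 to 7.08% lower against other cells, an Aire ratio of 1.12 to 1.21, and shares of 16.25 to 19.03% for EED-cKO and 13.99 to 18.3% for Aire/EED-dKO. The Aire-driven medians were 0.36 to 0.68 between genotypes in Kcna2/Prlr-high cells (0.36 without EED-cKO batch 4) and 3.02 to 3.43 in other cells, and -3.54 to -2.92 for EED-cKO and -0.66 to -0.45 for Aire/EED-dKO against other cells. The summed ratios were -1.86 to -1.45 and -0.53 to -0.41 against other cells, and 0.68 to 1.08 and 2.02 to 2.37 between genotypes. Of the named genes' values, 7713 stayed within the batch spread, and the others moved beyond it.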

Other observations

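Of 7 myoid genes, 2 were higher and 5 lower than in the other cells in both genotypes, with median log2 ratios of -1.81 and -0.08. With the day 3 EED-cKO batches alone 5 were higher and 2 lower (median 0.31), while the day 4 batches alone had a median of -2.91. With TMM, 4 were higher and 3 lower in Aire/EED-dKO (median 0.007). Ttn, the giant spring protein of muscle, was at 63.01, 1309 and 10849 CPM (lowest, median and highest cell) in the EED-cKO Kcna2/Prlr-high cells against a median of 442 CPM in the other cells, with a log2 ratio of 1.34 (batches 0.84 to 2.07). In Aire/EED-dKO its ratio was 0.39 (-0.39 to 0.83), and Ttn overlaps another annotated gene. Myog, a factor of muscle differentiation, was at 3.64 CPM against 13.1 CPM in EED-cKO and at 8.64 CPM against 39.1 CPM in Aire/EED-dKO. The Myog ratio in EED-cKO was positive with the day 3 batches alone and with as many other cells as Kcna2/Prlr-high cells.

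Of 13 medullary chemokine and cytokine genes, 4 (30.8%, against 5.18% of all genes) were called lower in the Kcna2/Prlr-high cells, Ccl5, Cxcl16, Tslp and Xcl1. Between EED-cKO and Aire/EED-dKO Kcna2/Prlr-high cells 2 (15.4%, against 0.948%) were called higher, Ccl5 and Cxcl9. Cxcl9, which attracts T cells, was at 301.4 CPM and 98.9 CPM, and stood at 287.3 CPM and 90.9 CPM in the other cells. Of 10 epithelial identity genes, 1 was higher for EED-cKO and 3 for Aire/EED-dKO, with median log2 ratios of -0.26 and -0.22, and none was called. With DESeq2 size factors 5 were higher for EED-cKO and 4 for Aire/EED-dKO, with medians of -0.01 and -0.11. Foxn1, the master regulator of thymic epithelium, had log2 ratios to the other cells of 0.67 (batches 0.28 to 1.02) in EED-cKO and 0.26 (0.23 to 0.48) in Aire/EED-dKO, while Cdh1, which encodes E-cadherin, had -0.68 (-0.90 to -0.57) and -0.48 (-0.83 to -0.38). Of 10 genes of Aire-linked nuclear proteins, 3 were higher than in the other cells for EED-cKO and 6 for Aire/EED-dKO. Their median log2 ratios were -0.08 and 0.06, and none was called. Among them Hipk2, a nuclear kinase, was higher than in the other cells in all 8 batches, with log2 ratios of 0.53 and 0.83.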
